A study of Mus musculus with 6 samples.

Results

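Actb, Tuba1b, Ppia and Hsp90ab1 encode abundant proteins of the cytoskeleton and of protein folding, and their signals were set side by side in mouse medulloblastoma (MB) and in cerebellar granule neuron precursors (GNPs). The 4 genes were taken by their probes on a long noncoding RNA array, where they belong to 15 gene probes named by a RefSeq transcript accession, among 60915 non-control probes. Medulloblastoma cells were dissociated from tumours of 4-month-old mice and precursors were isolated from mice aged 4 to 6 days, with 3 arrays per group. All mice were of the C57BL/6 strain carrying Tg(Neurod2-Smo*A1)199Jols/J, a transgene in which the Neurod2 promoter drives, in granule cells of the cerebellum, an always active form of Smo, the transducer of hedgehog signals. The precursors carry the transgene as well, so no group of mice without it enters the comparison, and tumour state and age cannot be told apart. The labels do not say whether arrays came from separate animals, so the spread between them may be technical.

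Actin and tubulin are the building blocks of the main filament systems of the cell. Actb encodes beta-actin, which polymerises into the filaments of the cell cortex, of growth cones and of dividing cells, and Tuba1b encodes an alpha-tubulin, which pairs with beta-tubulin to build microtubules of the mitotic spindle and of axons. Ppia encodes cyclophilin A, a peptidyl-prolyl isomerase that speeds a slow step of protein folding and is the intracellular receptor of cyclosporin A. Hsp90ab1 encodes HSP90 beta, the constitutively expressed cytosolic form of a chaperone that keeps kinases and steroid receptors in an activatable state. Granule neuron precursors divide in the outer layer of the newborn cerebellum under hedgehog signalling, then leave the cell cycle, extend axons and migrate inward, and medulloblastoma of the hedgehog type arises from this lineage. Genes of this kind often serve as references when other transcripts are measured.

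Before the results, some properties of the arrays bear on every value below. MB1 and MB2 were nearly identical, and so were GNPs1 and GNPs4. The difference within a pair was summarised as a robust SD per array, from the median absolute deviation, which gives little weight to a few far-off probes. Over 15286 probes, taken with a looser brightness limit than further below, it was 0.0597 (log2) for the medulloblastoma pair and 0.0408 for the precursor pair. It was 0.302 to 0.657 for the 13 other pairs of arrays. MB915 lay nearer to the precursor arrays (0.359 to 0.386) than to MB1 and MB2 (0.564 and 0.574). MB1 and MB2 lay 0.584 to 0.657 from the precursor arrays, so by this measure the medulloblastoma arrays did not lie together. Each near-identical pair also shared the array position recorded in the file headers (3 for MB1 and MB2, 1 for GNPs1 and GNPs4) and 29 spots flagged as non-uniform, out of 35 and 32 such spots on MB1 and MB2, and out of 32 and 38 on GNPs1 and GNPs4. The 13 pairs at different positions shared 0 such spots. Each near-identical pair was therefore averaged into 1 sample, so that each group has 2. MB915 held 143 non-uniform spots, more than any other array, and GNPs3 held 31. MB1 and GNPs4 belonged to one scan (scan 2) and the other 4 arrays to another (scan 1). The signal at the 75th percentile was 213, 229 and 321 on MB1, MB2 and MB915, and 305, 285 and 291 on GNPs1, GNPs3 and GNPs4. The spots that compare the 3′ and the 5′ end of Pgk1 moved with the group: the 3′ signal exceeded the 5′ signal by 6.21, 6.22 and 5.11 (log2) on MB1, MB2 and MB915, against 4.08, 4.33 and 4.05 on GNPs1, GNPs3 and GNPs4. For Gapdh the same difference was 1.25, 1.18 and 0.28 on the medulloblastoma arrays, against 0.64, 0.67 and 0.70 on the precursor arrays. The part of these differences in the results was not tested. None of 36 marker genes of granule cells and of other cerebellar cell types had a probe paired with its name in the files, so the labelled cell types were not checked against markers.

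The 4 genes were among the brightest probes on every array. Levels are given as log2 signal relative to the array's 75th percentile, and each is the mean of up to 20 repeated spots. All 480 spots (20 per gene on each of 6 arrays) were well above background and 0 were saturated, and 37 flagged spots were left out. The SD between the spots of a gene on an array was 0.0117 to 0.0870 (log2). Ppia ranked 20, 17 and 14 from the top on MB1, MB2 and MB915, against 36, 47 and 45 on GNPs1, GNPs3 and GNPs4. The Ppia probe thus stood nearer to the top on each medulloblastoma array than on any precursor array, and at its lowest rank it lay within the top 0.0772% of probes. Under quantile normalisation, which sets levels by rank, the samples of the groups did not overlap for Ppia, nor did they for 44.8% of probes tested. Tuba1b ranked 57, 50 and 61 on the medulloblastoma arrays, against 46, 130 and 54 on the precursor arrays, within the top 0.214%. Actb ranked 366, 357 and 639 on the medulloblastoma arrays, against 404, 200 and 408 on the precursor arrays, within the top 1.05%. Hsp90ab1 ranked 1124, 1148 and 401 on the medulloblastoma arrays, against 679, 913 and 682 on the precursor arrays, within the top 1.89%. For these 3 genes the ranks of the groups overlapped. Ranks place a probe's brightness on its own array and do not compare amounts of the 4 transcripts, because probes differ in how strongly they bind.

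Actb had levels of 8.29, 8.43 and 7.22 on MB1, MB2 and MB915, against 7.70, 8.45 and 7.64 on GNPs1, GNPs3 and GNPs4. MB915 was the lowest array and GNPs3 the highest, so the extremes lay in opposite groups and the groups overlapped. In signal units the Actb spots averaged 47851 on MB915 and 99714 on GNPs3. Over samples Actb averaged 7.79 ± 0.81 in medulloblastoma and 8.06 ± 0.55 in precursors (SD, n = 2 each). The difference was -0.27 (SE 0.54, 95% interval -1.71 to 1.17, limma's adjusted p = 0.853), a fold of 0.829. The medulloblastoma samples stood 1.14 apart and the precursor samples 0.78 apart, both more than the difference between the groups. Actb was the only one of the 4 genes with a lower mean in medulloblastoma, and that sign depended on single arrays: without MB915 the difference was 0.30 and without GNPs3 it was 0.12. It was -0.84 without the pair MB1 and MB2 and -0.66 without the pair GNPs1 and GNPs4. With the 6 arrays as separate samples it was 0.050.

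Tuba1b had levels of 9.18, 9.48 and 8.93 on MB1, MB2 and MB915, against 9.14, 8.77 and 8.94 on GNPs1, GNPs3 and GNPs4. MB2 was the highest array and GNPs3 the lowest, and MB915 lay within the range of the precursors. In signal units Tuba1b averaged 123484 on MB1, the lowest array on that scale, and 172406 on GNPs1, the highest. Over samples Tuba1b averaged 9.13 ± 0.28 in medulloblastoma and 8.90 ± 0.19 in precursors (SD, n = 2 each). The difference was 0.23 (SE 0.32, 95% interval -0.62 to 1.07, limma's adjusted p = 0.789), a fold of 1.17. The medulloblastoma samples stood 0.40 apart, more than the difference between the groups. The size of the difference depended on single samples: it was 0.43 without MB915, 0.36 without the pair GNPs1 and GNPs4, 0.15 without MB2, 0.089 without GNPs3 and 0.028 without the pair MB1 and MB2.

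Ppia had levels of 9.41, 9.71 and 9.16 on MB1, MB2 and MB915, against 9.19, 9.22 and 9.0 on GNPs1, GNPs3 and GNPs4. The arrays MB1 and MB2 stood above all 3 precursor arrays, and MB915 lay among them. In signal units Ppia averaged 144864 on MB1, the lowest array on that scale, and 191651 on MB2, the highest, which are the arrays of the near-identical medulloblastoma pair. Over samples Ppia averaged 9.36 ± 0.28 in medulloblastoma and 9.16 ± 0.087 in precursors (SD, n = 2 each). The difference was 0.21 (SE 0.30, 95% interval -0.61 to 1.02, limma's adjusted p = 0.80), a fold of 1.15. It was 0.40 without MB915, 0.13 without MB2 and 0.0085 without the pair MB1 and MB2, so its size depended on these arrays.

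Hsp90ab1 had levels of 6.85, 6.87 and 7.74 on MB1, MB2 and MB915, against 7.14, 6.91 and 7.10 on GNPs1, GNPs3 and GNPs4. MB915 was the highest array, and the other medulloblastoma arrays were lower than any precursor array. In signal units Hsp90ab1 averaged 68862 on MB915 and 24658 on MB1. Over samples Hsp90ab1 averaged 7.30 ± 0.62 in medulloblastoma and 7.01 ± 0.15 in precursors (SD, n = 2 each). The difference was 0.29 (SE 0.41, 95% interval -0.80 to 1.38, limma's adjusted p = 0.790), a fold of 1.22. That value rested on MB915, which stood 0.88 above the averaged pair MB1 and MB2. MB915 was also the array with the most non-uniform spots, 143. There 5 of the 20 Hsp90ab1 spots and 3 of the 20 Actb spots were flagged and left out. The part of such spots in the MB915 values was not tested. Without MB915 the difference was -0.15, without the pair MB1 and MB2 it was 0.73, and without GNPs3 it was 0.19.

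**Figure D1:**
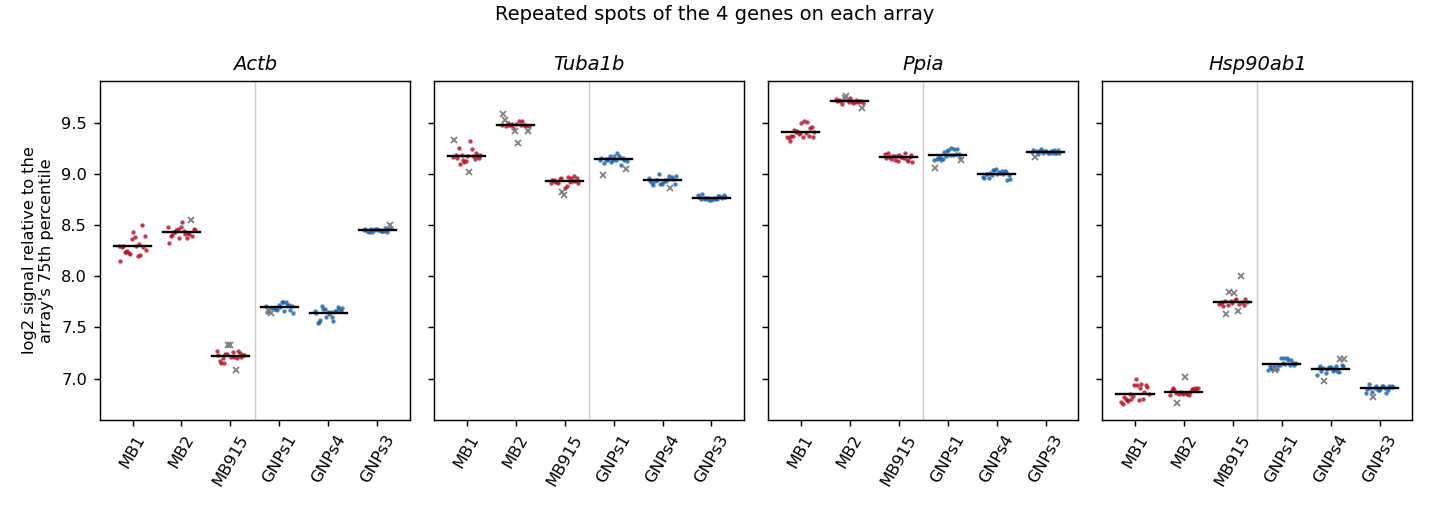
Each point is 1 repeated spot of the named gene on 1 array (x axis, medulloblastoma arrays MB left in red, precursor arrays GNPs right in blue), on the y axis as log2 signal relative to the array's 75th percentile. Crosses are flagged spots that were left out and bars are the means of the spots used; Actb was lowest and Hsp90ab1 highest on MB915, at 7.22 and 7.74.

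None of the 4 genes passed the test (0 of 4 at an adjusted p under 0.05, limma on 4 samples), and 0 of 4 had an unadjusted p under 0.05. The background in that fit was 0% (0 of 40732 probes tested), with 4560 probes at an unadjusted p under 0.05. With the 6 arrays as separate samples 0 of 4 passed against a background of 13% (5302 of 40887 probes), and 0 of 4 had an unadjusted p under 0.05, against 14625 probes. That fit counts the near-identical pairs as independent. The samples of the groups overlapped for all 4 genes, whereas they did not overlap for 47% of probes tested. With 2 samples per group the smallest two-sided exact permutation p is 0.333, so that test could not pass. The 95% intervals bound the changes loosely: they reach from -1.71 to 1.17 for Actb and from -0.61 to 1.02 for Ppia, so differences of 2-fold in at least one direction lie within the interval of each gene. The median difference of the 4 genes was 0.22, beside 0.080 over all probes tested and 0.13 over the 11 other named genes. Over the 2762 bright probes tested (mean level of at least 5) it was 0.12. In bulk RNA such as this, fewer cells of a type and less RNA per cell cannot be told apart.

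Scaling moved all probes together. The median difference over the probes tested was 0.080 with the 75th percentile, -0.066 with scaling to the median and -0.19 with scaling to the 11 other named genes. Under all 3 of these scalings Actb lay 0.35 below that median, and Tuba1b, Ppia and Hsp90ab1 lay 0.15, 0.13 and 0.21 above it, since such scalings shift each array as a whole. Relative to zero, Tuba1b and Ppia changed sign under scaling to the other named genes, to -0.044 and -0.064. That scaling used the mean of the 11 genes. Their own differences were uneven, from -0.36 to 1.71 (Rpl13a) with a median of 0.13.

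**Figure D2:**
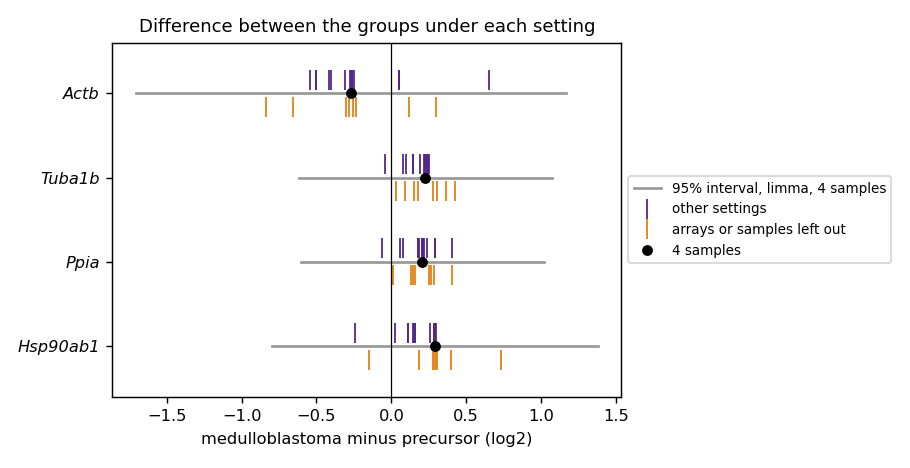
The x axis is the medulloblastoma minus precursor difference (log2) of each gene (y axis), with black points for the 4-sample fit and grey lines for limma's 95% interval. Purple ticks are other processing settings and orange ticks are fits with samples or arrays left out; the ticks of Actb run from -0.84 to 0.65 and those of Ppia from -0.064 to 0.41.

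Within scan 1, which holds 2 arrays of each group, the differences were -0.25 for Actb, 0.25 for Tuba1b, 0.24 for Ppia and 0.29 for Hsp90ab1. Limma's adjusted p within scan 1 was 0.869, 0.788, 0.786 and 0.792 for these genes. Scan 2 holds 1 array of each group and allows no test. There the differences were 0.65 for Actb, 0.24 for Tuba1b, 0.41 for Ppia and -0.24 for Hsp90ab1. The signs of Tuba1b and Ppia were the same in both scans and those of Actb and Hsp90ab1 were opposite. The scans are not independent, because MB1 and GNPs4 are the near-identical partners of MB2 and GNPs1 in scan 1. On MB2 and GNPs1 alone, Actb stood at 8.43 and 7.70 and Hsp90ab1 at 6.87 and 7.14, the same order as in scan 2. MB915 and GNPs3, on which Actb stood apart from the other arrays of its group, both belong to scan 1.

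The spread of the genes over the samples differed, and for Hsp90ab1 it rested on MB915. Over the 4 samples the SD of the level was 0.207 for Ppia and 0.237 for Tuba1b, against 0.407 for Hsp90ab1 and 0.585 for Actb. As a range from the lowest to the highest sample this was 1.38-fold for Ppia, 1.48-fold for Tuba1b, 1.84-fold for Hsp90ab1 and 2.35-fold for Actb. Among 2762 bright probes (mean level of at least 5) Ppia stood at percentile 16.8 of the SD and Tuba1b at 22.4, whereas Hsp90ab1 stood at 59.7 and Actb at 85.9. Without MB915 the SD was 0.137 for Hsp90ab1, 0.241 for Ppia, 0.281 for Tuba1b and 0.427 for Actb, so Hsp90ab1 then varied least of the 4 genes. The percentiles without MB915 were 10.2 for Hsp90ab1, 27.5 for Ppia, 34.3 for Tuba1b and 59.3 for Actb. Actb had the largest SD of the 4 genes with any of the 4 samples left out, at percentiles of 59.3 to 92.0. Ppia had the smallest SD without the pair MB1 and MB2 (0.0614) and without the pair GNPs1 and GNPs4 (0.215), and Tuba1b without GNPs3 (0.206). In order of increasing SD among the 15 named genes, Ppia came at place 2, Tuba1b at 3, Hsp90ab1 at 10 and Actb at 13. The smallest SD there was 0.131, for Ldhal6b, a dim lactate dehydrogenase A-like gene, and the largest was 1.02, for Rpl13a, a ribosomal protein gene. Rpl13a had levels of 6.80 and 6.18 in the medulloblastoma samples, against 4.88 and 4.68 in the precursor samples. Its difference was 1.71 (SE 0.35, limma's adjusted p = 0.263), and its samples did not overlap between the groups, as was so for 47% of probes tested. With the 6 arrays as separate samples limma's adjusted p for Rpl13a was 0.00898, in the fit that passed 13% of probes.

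**Figure D3:**
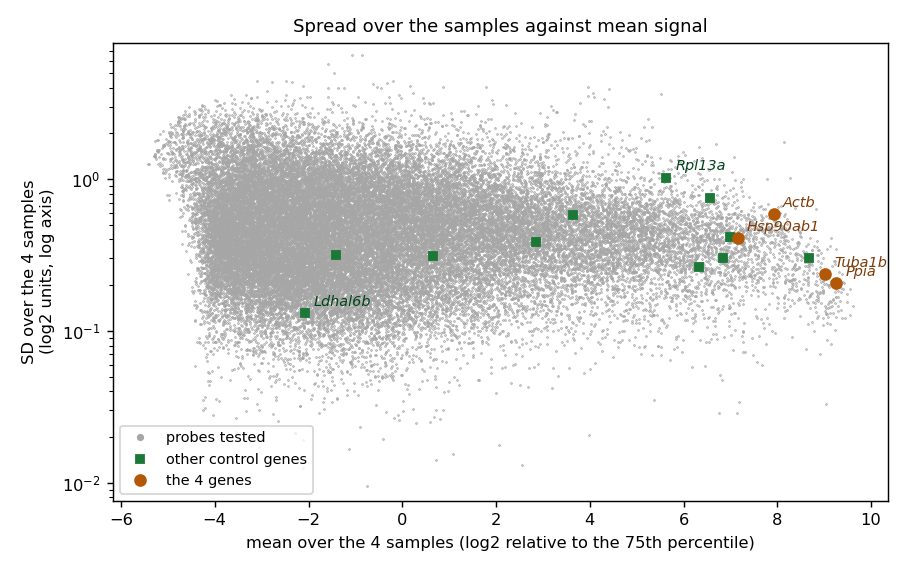
The x axis is the mean level over the 4 samples (log2 relative to the 75th percentile) and the y axis the SD over the 4 samples (log2 units, on a log axis), with grey points for probes tested, green squares for the 11 other named genes and orange circles for the 4 genes. Ppia (SD 0.207) and Tuba1b (0.237) lie to the right and below Hsp90ab1 (0.407) and Actb (0.585).

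The order of the SD held in part. Ppia had the smallest and Tuba1b the second smallest SD of the 4 genes under every scaling and spot summary tried, with all 4 samples included. Without scaling the SD was 0.0775 for Ppia and 0.159 for Tuba1b, against 0.447 for Actb and 0.599 for Hsp90ab1, so the last pair changed places. The same exchange occurred with quantile normalisation and in the authors' deposited table, which gave close values and are not separate checks. With scaling to the median the SD was 0.0963 for Ppia and 0.550 for Actb.

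Ratios within a sample do not depend on scaling each array as a whole. The Tuba1b over Ppia ratio was -0.23 and -0.23 (log2) in the medulloblastoma samples (MB1 with MB2, then MB915), against -0.053 and -0.45 in the precursor samples (GNPs1 with GNPs4, then GNPs3). Its range over the 4 samples was 1.32-fold, the narrowest of the 6 ratios between the 4 genes. The Actb over Hsp90ab1 ratio was 1.5 and -0.53 in the medulloblastoma samples, against 0.55 and 1.54 in the precursor samples, a range of 4.20-fold and the widest. From high to low, Actb ran from GNPs3 over MB1 with MB2 and GNPs1 with GNPs4 to MB915, whereas Hsp90ab1 ran from MB915 over GNPs1 with GNPs4 and GNPs3 to MB1 with MB2. The samples with the higher Actb levels were thus those with the lower Hsp90ab1 levels, apart from the order of GNPs3 and the averaged pair MB1 and MB2. The medulloblastoma samples alone spanned nearly the whole range of this ratio, and without MB915 the range was 1.99-fold. Without MB915 the Actb over Tuba1b ratio had the widest range, 2.08-fold, and with any of the 4 samples left out the Tuba1b over Ppia ratio had the narrowest, 1.13-fold to 1.32-fold. The Actb over Ppia ratio was -1.20 and -1.94 in the medulloblastoma samples, against -1.43 and -0.77 in the precursor samples. The Actb over Tuba1b ratio was -0.97 and -1.71 in the medulloblastoma samples, against -1.37 and -0.32 in the precursor samples. In both of these, GNPs3 was highest and MB915 lowest. The Ppia over Hsp90ab1 ratio was 2.70 and 1.42 in the medulloblastoma samples, against 1.98 and 2.31 in the precursor samples. The Tuba1b over Hsp90ab1 ratio was 2.47 and 1.19 in the medulloblastoma samples, against 1.92 and 1.86 in the precursor samples. The groups overlapped in all 6 ratios, and the two-sided exact permutation p was 0.667 or 1 in each (1 after Benjamini-Hochberg adjustment over the 6). With 2 samples per group that p cannot go below 0.333, so the test could not pass and does not show that the ratios are equal.

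**Figure D4:**
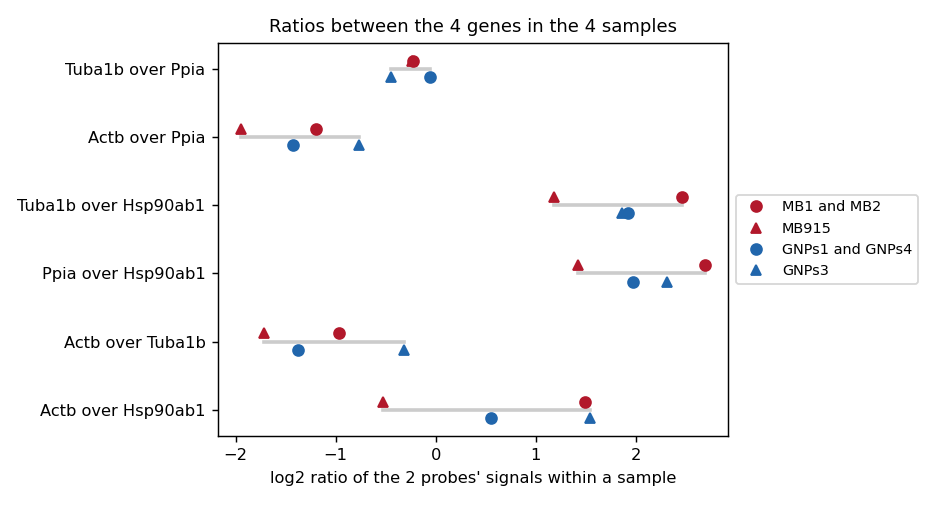
The x axis is the log2 ratio of the signals of the probes named on the y axis within a sample, with medulloblastoma samples (MB) in red above and precursor samples (GNPs) in blue below each grey line, which spans the range. The Tuba1b over Ppia ratio stays within 1.32-fold and the Actb over Hsp90ab1 ratio spans 4.20-fold.

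The start regions of Ppia and Tuba1b are shown because only these 2 of the 4 genes had an entry. They are the 250 bases before the start of the gene, 5′ to 3′ on the gene's strand, from RefSeq on GRCm38.p6. The Ppia region is chr11:6415617-6415866 on the plus strand and the Tuba1b region is chr15:98934391-98934640 on the minus strand. Capitals mark matches on either strand to TATAAA, the letters of a TATA box, and to GGGCGG, the letters of a GC box, and no matches overlap.
Ppia: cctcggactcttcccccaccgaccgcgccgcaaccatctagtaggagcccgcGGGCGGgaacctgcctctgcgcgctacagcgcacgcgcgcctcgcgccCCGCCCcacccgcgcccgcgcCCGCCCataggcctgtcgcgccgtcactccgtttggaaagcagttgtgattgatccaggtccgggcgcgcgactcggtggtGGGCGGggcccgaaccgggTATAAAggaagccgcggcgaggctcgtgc
Tuba1b: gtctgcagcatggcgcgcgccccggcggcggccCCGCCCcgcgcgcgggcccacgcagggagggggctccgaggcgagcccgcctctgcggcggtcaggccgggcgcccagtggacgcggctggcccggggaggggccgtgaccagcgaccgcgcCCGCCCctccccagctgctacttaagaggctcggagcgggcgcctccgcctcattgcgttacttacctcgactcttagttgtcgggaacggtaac
The Ppia region held 4 matches to GGGCGG and 1 to TATAAA, which began 29 bases before the start. The Tuba1b region held 2 matches to GGGCGG and 0 to TATAAA. Among 32851 such windows of RefSeq genes, 32.7% held GGGCGG and 12.4% held TATAAA. Neither region held CCAAT, present in 33.8% of windows, or GAANNTTC, a core of heat shock elements, present in 6.69%. Both were rich in G and C, at 72.4% for Ppia and 75.6% for Tuba1b, beside a median of 52.4% over the windows. These matches describe letters only, and the arrays hold no measurement at these regions.

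Likeness was measured as the root mean square distance between the centred levels of a pair of genes over the 4 samples. Small values mean that the centred levels lie close, which genes of small spread can also reach without parallel levels. Ppia and Ldhal6b, for example, lay 0.216 apart at a Pearson r of -0.039. Among the 11 other named genes Ppia lay closest to Hprt, a purine salvage enzyme (0.0868), and to Gapdh, a glycolytic enzyme (0.102). Tuba1b lay closest to Gapdh (0.118) and Hprt (0.163), and its distance to Ppia was 0.141. Hsp90ab1 lay closest to Gusb, a lysosomal beta-glucuronidase (0.138), and to Nono, a nuclear RNA-binding protein gene (0.169). Actb lay closest to Tfrc, the transferrin receptor (0.312), and to Hprt (0.401). Its nearest neighbour was thus farther off than that of any of the other 3 genes. Actb also had the largest SD of the 4 genes, 0.585, and such distances grow with the SD. The distance between Actb and Hsp90ab1 was 0.844.

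The near-identical pairs allow bright probes to be compared between scans. The sources used here do not say whether such a pair is 2 hybridisations or 1 array scanned again, so the gaps may measure scanning alone. After scaling, MB2 exceeded MB1 by 0.30 for Ppia, 0.30 for Tuba1b, 0.14 for Actb and 0.021 for Hsp90ab1. GNPs1 exceeded GNPs4 by 0.19 for Ppia, 0.20 for Tuba1b, 0.058 for Actb and 0.047 for Hsp90ab1. In both pairs the array of scan 1 was the higher one for each gene, and the excess was larger for Ppia and Tuba1b than for the dimmer pair. Other bright probes did likewise: the median excess over the brightest 100 probes was 0.28 for the medulloblastoma pair and 0.14 for the precursor pair. Over the 900 probes next in brightness it was 0.097 and 0.043, and over the 9000 after those it was 0.0053 and -0.0019. The Ppia and Tuba1b differences between the groups, 0.21 and 0.23, were smaller than the gap between arrays of the medulloblastoma pair. That gap lies between scans, and the averaged pair of each group holds 1 array of each scan, so the gap enters both groups. Within scan 1 alone the differences were 0.24 and 0.25. The part of the gap in the group differences was not tested. For Actb and Hsp90ab1 the gaps in that pair, 0.14 and 0.021, were below the SD over the samples, 0.585 and 0.407.

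**Figure D5:**
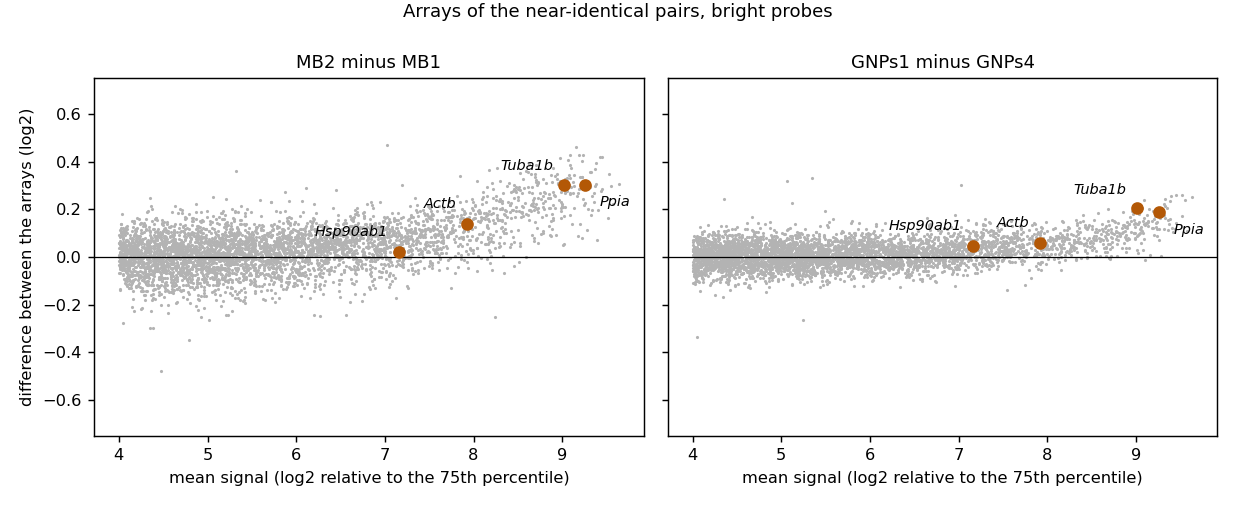
The x axis is the mean level of a probe (log2 relative to the 75th percentile) and the y axis the difference between the arrays of a near-identical pair (log2), at the left MB2 minus MB1 and at the right GNPs1 minus GNPs4, with grey points for bright probes and orange circles for the 4 genes. The cloud bends upward at the bright end, where Ppia and Tuba1b lie at 0.30 in the medulloblastoma pair and 0.19 and 0.20 in the precursor pair.

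The authors' deposited table, on a log2 scale with a median of 5.50 in each column and with the method and centring unknown, gave a smaller gap. In the authors' deposited table the arrays of a near-identical pair differed by 0.021 for Ppia, 0.035 for Tuba1b, 0.022 for Actb and 0.025 for Hsp90ab1 in medulloblastoma. The gaps in the precursor pair of the authors' deposited table were 0.045, 0.046, 0.0064 and 0.0069 for these genes. Ppia stood at 17.44 and 17.48 in the medulloblastoma samples of the authors' deposited table, against 17.29 and 17.25 in the precursor samples. There the groups did not overlap. The background for such separation in the authors' deposited table was 45%, so the count of 1 of 4 genes is not above it. Limma on the authors' deposited table gave Ppia a difference of 0.18 (adjusted p = 0.824). Actb stood at 16.10 and 15.44 in the medulloblastoma samples of the authors' deposited table, against 15.96 and 16.59 in the precursor samples. Hsp90ab1 stood at 14.72 and 15.98 in the medulloblastoma samples of the authors' deposited table, against 15.38 and 15.00 in the precursor samples. Tuba1b stood at 17.22 and 17.18 in the medulloblastoma samples of the authors' deposited table, against 17.24 and 16.87 in the precursor samples. The opposite extremes of Actb and Hsp90ab1 on MB915 were thus present in both versions of the values.

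Further genes of the same systems had no named probe. Of 15 actin cytoskeleton genes, 17 tubulins and microtubule binders, 9 peptidyl-prolyl isomerases and 20 HSP90 and HSP70 chaperones listed, only the 4 genes above were paired with a probe in the files, and of 14 chaperonin and prefoldin genes 0 were. Actin, tubulin and cyclophilin genes have near-identical relatives and processed copies in the mouse genome. The probe sequences were not used here, so the share of signal from such relatives was not tested.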

How the data were processed

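RNA was measured on 6 arrays of 1 colour. Ribosomal RNA had been depleted before random-primed amplification and Cy3 labelling, per the labels' protocols. Per the file headers, the deposited scanner files hold spot intensity processed with Feature Extraction 11.0.1.1. The authors also deposited a table whose values lie on a log2 scale, with a method not given in the sources used here. The intensity was put on a log2 scale, non-uniform and population-outlier spots were dropped, the remaining spots of each probe were averaged, and the array's 75th percentile was subtracted. The test took the 40732 probes that were well above background throughout one group or both and had a value in every sample. limma 3.58.1 (R 4.3.3) compared 2 with 2 samples, each near-identical pair averaged, with Benjamini-Hochberg adjustment over all probes tested. The files lack the mean signal, so the normexp alternative (offset 50) used the median signal. Alternatives covered scaling, background, filters, spots, scans and samples left out. The named genes were the 4 genes, for each the 2 closest other named genes, and the named genes with the smallest and largest SD. All 15 accessions matched RefSeq genes of GRCm38.p6 without version. The members and lists were chosen with earlier results of these data known. The fit was tested on simulated data. The number of arrays limits the precision.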

Additional observations from a re-analysis of the deposited data

How the results depend on the processing

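Of 27 alternatives per gene 26 allow a test, and in those none of the 4 genes passed, and the lowest limma adjusted p was 0.577 for Actb, 0.399 for Tuba1b, 0.295 for Ppia and 0.468 for Hsp90ab1. The sign changed for Actb with the 6 arrays as separate samples (0.050), with the scan as a block on these (0.050) and within scan 2 (0.65). It changed for Tuba1b (-0.044) and Ppia (-0.064) under scaling to the other named genes, and for Hsp90ab1 within scan 2 (-0.24). With samples or arrays left out the difference ran from -0.84 to 0.30 for Actb (0.30 without MB915 and 0.12 without GNPs3), from 0.028 to 0.43 for Tuba1b, from 0.0085 to 0.40 for Ppia and from -0.15 to 0.73 for Hsp90ab1 (-0.15 without MB915). Where this leaves a group with 1 sample, that sample is assumed to vary like the other group. The cause of these changes was not tested. The count of probes past the threshold, 0 in the 4-sample fit, was 5302 with 6 separate arrays (2874 higher, 2428 lower in medulloblastoma). It was 1865 with the scan as a block on these, 212 with the near-identical pairs as a random block and 4 with both. Without scaling it was 25, with median scaling 1, and with 1 array of a near-identical pair left out 0 to 1. The other alternatives that keep 2 samples per group gave 0. Taking the spots' mean on the linear scale, and leaving samples out of the SD, were added after seeing the data. No paired analysis was possible because the groups share fewer than 2 replicate numbers and the labels, which speak of paired cells, do not say which arrays pair. With 2 samples per group, the number of arrays limits what can be shown.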
